A study of Mus musculus with 60 samples.

Results

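Glycolysis breaks glucose down to pyruvate in the cytosol and yields ATP without oxygen. Phosphofructokinase commits the sugar to the pathway, aldolase cleaves it, and the lower steps oxidise and rearrange the fragments to pyruvate, which lactate dehydrogenase can reduce to lactate. Several of these enzymes come as isozymes from separate genes, and muscle differs from most other tissues in the isozymes it uses. Many of the genes are textbook targets of hypoxia-inducible factor and of Myc. The set examined here comprised 10 mouse genes. Pfkl, Pfkm and Pfkp encode the liver, muscle and platelet type subunits of phosphofructokinase, and Aldoa encodes aldolase A. Gapdh, Pgk1, Pgam1, Eno1 and Pkm encode the enzymes that lead from glyceraldehyde 3-phosphate to pyruvate, and Ldha encodes the A chain of lactate dehydrogenase.

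Members were all rows of both array tables whose annotated or current gene symbol was 1 of these 10. They made up 328 of 31968 deposited rows, and 9 of the 10 genes had a row. No row used here was annotated to Eno1. Gapdh was spotted many times, with 160 rows on array part I and 152 on part II that repeated the same values within a part. The other 8 genes had 2 identical rows each, on part I alone. Collapsing identical rows left 10 distinct probes, and all 10 had values in 2 or 3 cultures per line, the minimum for testing being 2. In all, 9711 probes were tested, which measured 8108 genes.

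Expression was compared between 5 mouse cell lines of a study on oculopharyngeal muscular dystrophy, a muscle disease linked to Pabpn1, the gene of the nuclear poly(A)-binding protein. IM2 was untransfected. WTA and WTD were transfected with wild-type Pabpn1, and their levels were labelled high and low. D7E and D7F were transfected with mutant Pabpn1, again labelled high and low. Each genotype and level was represented by 1 line, so a difference between genotypes or levels cannot be told apart from a difference between single lines. The labels name neither the tissue of origin, nor the mutation, nor the promoter driving Pabpn1. Each line was grown as 3 cultures, and every culture was hybridised against a common IM2 reference in both dye orientations on each of 2 array parts, giving 60 arrays. Below, a value is the log2 ratio of a culture to that reference, averaged over the dye orientations. The log base of the deposited numbers is not stated. It was taken as 10, and every log2 size and fold holds only for that base.

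Pabpn1 was above the reference on 24 of 24 part I arrays of transfected cultures. Its mean log2 ratio was 2.19 ± 0.29 in WTA, 1.61 ± 0.14 in D7E, 1.43 ± 0.07 in WTD and 0.92 ± 0.11 in D7F (SD, n = 3 each). Arrays differed in quality, with 10 of 60 having over 20% of their filled values at a limit of the scale or over 25% of rows unfilled, and 6 of those 10 were IM2 arrays. Of 14 tested markers of skeletal muscle, 6 passed the test as higher in the transfected lines and none as lower. Of 6 fibroblast markers, 4 passed as lower. Over all probes tested, 8.84% passed as lower and 6.41% as higher when the 4 transfected lines were set against IM2. The mean log2 ratio of the muscle markers was -0.08 to 0.06 in the IM2 cultures and 0.29 to 0.65 in the transfected ones. That of the fibroblast markers was -0.08 to 0.19 in IM2 and -1.71 to -0.72 in the transfected cultures. None of 4 smooth muscle, 2 adipocyte, 2 endothelial and 2 neural probes passed (limma), and no leukocyte marker was tested. An unadjusted p under 0.05 was reached by 2 smooth muscle probes and 0 of the others, against 2976 of all 9711 probes. The part of these shifts in the results below was not tested.

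The transcripts of Pfkl and Pgam1 fell in every transfected line, and the remaining members did not pass the test in any line. With the 4 transfected lines averaged and set against IM2, 2 of 10 member probes passed (limma, Benjamini-Hochberg adjusted p under 0.05), both lower, where 15.2% of all probes tested passed in either direction, 8.84% as lower and 6.41% as higher. In the test of any difference among the 5 lines, 3 of 10 passed (Pfkl, Pgam1 and Ldha), against 10.3% of all probes. The median difference over the 10 member probes was -0.35, with 8 of 10 below 0, and that over all probes was 0.03.

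Pgam1, the phosphoglycerate mutase found in most tissues, showed the largest called fall. Its log2 ratio was 0.15, -0.04 and -0.08 in the 3 IM2 cultures. In the wild-type lines it was -1.19, -1.19 and -0.56 (WTA) and -1.64, -1.58 and -1.66 (WTD). In the mutant lines it was -1.53, -1.19 and -1.45 (D7E) and -1.15, -0.97 and -0.99 (D7F). All 12 transfected cultures therefore lay below all IM2 cultures, and the ratio was below 0 on 24 of 24 single arrays. The mean of the 4 lines was 1.27 lower on the log2 scale than in IM2 (difference -1.27, SE 0.13, limma adjusted p = 0.000108), which is 2.41-fold. By line, the fall was deepest in WTD (-1.64) and D7E (-1.40), and about -0.99 in WTA and -1.05 in D7F, each past the threshold. In WTA it missed the threshold when arrays were centred and scaled (-0.71, adjusted p = 0.0918) and when only WTA and IM2 were fitted (adjusted p = 0.116). In D7F it missed the threshold on the Cy5 arrays alone (-0.90, adjusted p = 0.0559).

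Pfkl, the liver type subunit of phosphofructokinase, fell to clearly different depths in the lines. It was near the reference in IM2, at 0.16, -0.06 and 0.01. The cultures of WTD lay at -1.54, -1.44 and -1.46 and those of D7E at -1.46, -1.31 and -1.26. Those of WTA lay at -0.61, -0.59 and -0.11, and those of D7F at -0.64, -0.37 and -0.57. The transfected cultures formed 2 levels that did not overlap, and both were below IM2. Against IM2, Pfkl was 0.98 lower over the 4 lines together (difference -0.98, SE 0.11, limma adjusted p = 0.000195), 1.98-fold. The single lines differed from IM2 by -1.51 in WTD and -1.38 in D7E (limma adjusted p = 0.000114 and 0.000219). The smaller differences of -0.48 in WTA and -0.57 in D7F passed narrowly (limma adjusted p = 0.0468 and 0.0405). They missed the threshold in 24 of 29 and 22 of 29 other settings, with adjusted p up to 0.361 and 0.1502. These settings include leaving out IM2 culture 1 or 3 or any WTD, D7E or D7F culture, and for WTA also WTA culture 1 or 2 (adjusted p = 0.0532 to 0.163 for WTA and 0.0526 to 0.132 for D7F).

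Both genes had the same order of line means, IM2 above WTA, then D7F, D7E and WTD. Neighbours did not all separate. The ranges of WTA and D7F overlapped for both genes, as did those of D7E and WTD for Pfkl, while for Pgam1 every WTD culture lay below every D7E culture. The order is not that of the Pabpn1 ratio, which was highest in WTA and lowest in D7F, the lines with the smallest falls.

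**Figure D1:**
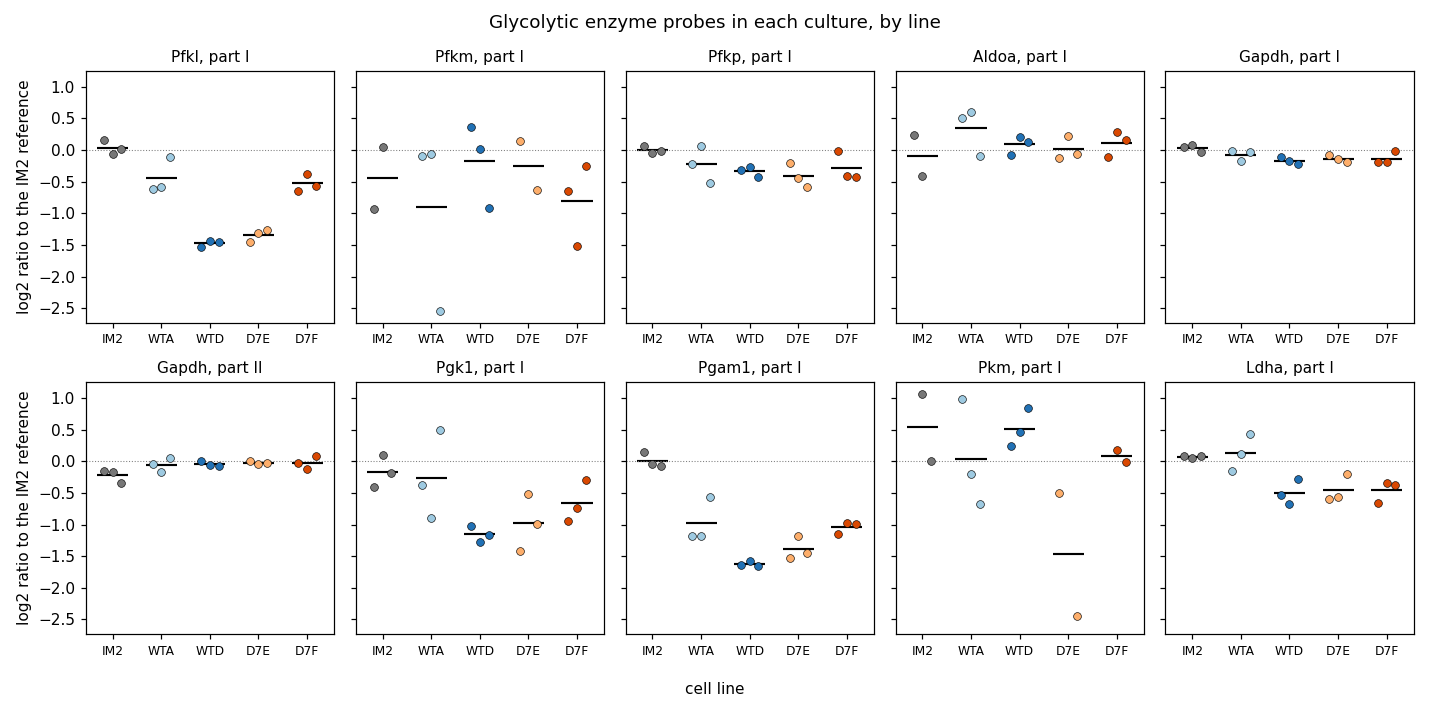
Log2 ratio to the IM2 reference (y axis) of each glycolytic enzyme probe in the 3 cultures of each line (points, x axis), with the line mean as a bar. Pfkl and Pgam1 lie below IM2 in all 12 transfected cultures, Pfkl at -1.54 to -1.26 in WTD and D7E, while Gapdh stays within -0.35 to 0.08 throughout and Pfkm and Pkm scatter within lines.

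Pgk1, phosphoglycerate kinase, and Ldha moved in the same direction in most cultures without passing the test against IM2. Pgk1 lay at -0.40, 0.09 and -0.18 in IM2, at -1.02, -1.27 and -1.16 in WTD, at -1.42, -0.52 and -0.99 in D7E and at -0.95, -0.74 and -0.29 in D7F. WTA was spread widely, at -0.38, -0.90 and 0.50. The difference of the 4 lines from IM2 was -0.60 (SE 0.25, limma adjusted p = 0.132), and that of WTD alone was -0.99 (limma adjusted p = 0.0833). For Pgk1 all WTD and all D7E cultures lay below the IM2 range, whereas the WTA cultures lay below, inside and above it.

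Ldha was tight in IM2, at 0.08, 0.05 and 0.08. It lay at -0.54, -0.67 and -0.29 in WTD, at -0.59, -0.56 and -0.20 in D7E and at -0.65, -0.34 and -0.38 in D7F, all below IM2, but at -0.16, 0.12 and 0.43 in WTA. The mean line difference from IM2 was 0.06 in WTA, against -0.57 in WTD, -0.52 in D7E and -0.53 in D7F (limma adjusted p = 0.0617, 0.0629 and 0.101). Ldha passed the test of any difference among the 5 lines (adjusted p = 0.0413), while the difference of the 4 lines from IM2 of -0.39 did not pass (adjusted p = 0.0657). That difference passed without WTA culture 3 (-0.43) or without D7E culture 3 (-0.42, adjusted p = 0.047).

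WTA culture 3 stood apart for these genes. Among the WTA cultures it had the highest ratio for Pfkl, Pgk1, Pgam1 and Ldha, and the lowest for Pfkm, Pfkp, Aldoa and Pkm. Without it, 4 of 10 member probes passed as lower in the 4 lines against IM2: Pgam1 (-1.32, limma adjusted p = 1.96e-05), Pfkl (-1.02, adjusted p = 5.09e-05), Ldha (-0.43, adjusted p = 0.0322) and Pgk1 (-0.69, adjusted p = 0.036). WTD against IM2 likewise then had 4 calls instead of 2, with the same 4 genes, although no WTD culture was removed, since all lines share the estimate of the spread. The calls over all probes in this fit are not given here, so these counts have no share beside them. Over all settings, the all-probe calls ran from 397 to 1794 for the 4 lines and from 138 to 1143 for WTD. Leaving out WTA culture 1 added Ldha in WTD (adjusted p = 0.0446) and in D7E (adjusted p = 0.0436), and leaving out D7E culture 3 added it in D7E (-0.65, adjusted p = 0.047). The titles and channel sources of this culture's part I arrays disagree on the dye, which the mean of both orientations does not depend on.

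The 4 genes can be set beside their promoter sequence, taken from RefSeq for the mouse assembly GRCm38.p6. Hypoxia-inducible factor is known to bind a short core, searched here as ACGTG or GCGTG on both strands in the 250 bases before each listed start. The palindrome CACGTG, which Myc also binds, contains the first core on both strands. At least 1 match stood before a listed start of each of the 10 genes, and such a match stood before 38.6% of all 32851 listed starts, or before a start of 41.5% of 27025 genes. A match is a description of letters and shows no binding. Windows of 30 bases are printed 5′ to 3′ on the gene's strand for the genes that fell or moved with them, and for Aldoa and Gapdh, which did not pass the test. The capitals mark 1 match in each window. In Aldoa, CACGT is the core ACGTG read on the opposite strand, and the Gapdh window holds a further match left in lower case.
Pgam1, chr19:41911744-41911773, + strand: gcgctccttgcttACGTGcgctccgtgact
Pfkl, chr10:78009890-78009919, - strand: catttgtagactgGCGTGcgctccgccttt
Pgk1, chrX:106186937-106186966, + strand: cgcgtcgtgcaggACGTGacaaatggaagt
Ldha, chr7:46845647-46845676, + strand: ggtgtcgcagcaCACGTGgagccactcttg
Ldha, chr7:46845744-46845773, + strand: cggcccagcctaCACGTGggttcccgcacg
Aldoa, chr7:126799364-126799393, - strand: atgtggctcgagtCACGTcctagcggggcg
Gapdh, chr6:125165801-125165830, - strand: ccacacgcttggtGCGTGcacatttcaaaa
The first capital lay 99 bases before the listed start in Pfkl, 114 in Pgam1, 150 in Pgk1, and 145 and 48 in Ldha. Over the 250 bases before their 1 listed start, Pgam1 had 3 matches, Pgk1 and Gapdh 2 each, and Pfkl 1. Pfkp, which did not pass the test, had 3 before its 1 start. Ldha had 4 matches over 2 listed starts, and Aldoa 2 over 3 starts, both at the same site. The number of matches thus does not order the genes by the size of their fall.

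Gapdh, glyceraldehyde-3-phosphate dehydrogenase and a common reference gene in expression work, was measured on both array parts. On part I it lay at 0.05, 0.07 and -0.03 in IM2 and at -0.22 to -0.01 in the 12 transfected cultures (median -0.16). On part II it lay at -0.16, -0.17 and -0.35 in IM2 and at -0.17 to 0.08 in the transfected cultures (median -0.03). The sign of the difference from IM2 thus differed between the parts, at -0.16 (SE 0.07, limma adjusted p = 0.171) on part I and 0.19 (SE 0.10, adjusted p = 0.198) on part II. Neither passed, and their 95% intervals of -0.32 to 0.00 and -0.02 to 0.40 hold no change beyond 0.40 on the log2 scale in either direction. On part II it was -0.26 when the IM2 values had their sign turned.

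For Gapdh on part I, the dye orientations lay further apart than the lines. Its mean was 0.12 over the 15 Cy3 arrays and -0.31 over the 15 Cy5 arrays, with a median gap of 0.41 between the orientations of a culture. On part II the dye means were 0.03 and -0.17 and the median gap 0.0913, while the line means ran from -0.22 in IM2 to -0.02 in D7E. Against IM2, the part I difference was -0.31 on the Cy3 arrays alone and -0.01 on the Cy5 arrays alone. For Pgam1 the dye means were -1.02 and -0.99, and the orientations of a culture differed by 0.32 at most. For Pfkl the dye means were -0.91 and -0.59. The called falls of Pgam1 and Pfkl in the mean of the 4 lines passed the test in each orientation by itself.

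**Figure D2:**
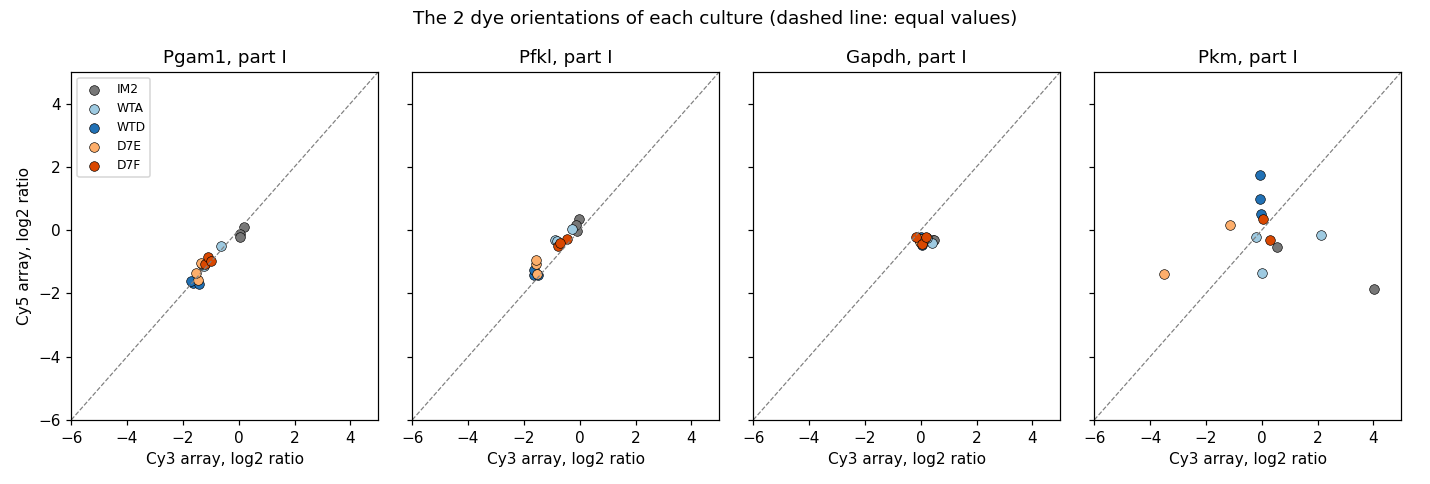
Log2 ratio on the Cy5 array (y axis) against the Cy3 array (x axis) of the same culture, 1 point per culture coloured by line, with the dashed line at equal values. Pgam1 follows the line, Gapdh sits below it near -0.31 on Cy5, and the orientations of Pkm differ by up to 5.88.

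The other phosphofructokinase subunits did not pass the test. Pfkp, the platelet type, lay at 0.07, -0.05 and -0.02 in IM2 and at -0.58 to 0.06 in the transfected cultures. Its difference from IM2 was -0.31 (SE 0.13, limma adjusted p = 0.120), and its line means were -0.41 in D7E, -0.34 in WTD, -0.28 in D7F and -0.23 in WTA. Within a culture, Pfkp minus Pfkl was -0.10 to 0.01 in IM2, 1.04 to 1.21 in WTD, 0.68 to 1.25 in D7E and -0.41 to 0.65 in WTA. Pfkp did not pass in WTD or D7E (limma adjusted p = 0.238 and 0.127). The difference between the subunits was chosen after its values were seen and was not tested.

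Pfkm, the muscle type subunit, was measured with wide scatter, from -2.55 to 0.36 among the transfected cultures and at -0.93 and 0.05 in the 2 IM2 cultures with a value. Its difference from IM2 was -0.09, with a 95% interval of -1.48 to 1.30, so these arrays could not resolve a change of the size seen for Pgam1. Pkm, the pyruvate kinase gene of muscle and most other tissues, was noisier still. Its orientations differed by up to 5.88 within a culture, and 3 of its 30 arrays lay at a limit. The mean was 0.54 over 2 IM2 cultures and -1.47 over the 2 D7E cultures measured, at -0.50 and -2.44. D7E was 4.01-fold lower than IM2 and did not pass (limma adjusted p = 0.0945). The difference passed with the limit values kept, with arrays centred and scaled, and without D7E culture 1 (-2.97, adjusted p = 0.0341), and ran from -4.59 to 1.23 over all settings. The ratio cannot tell the splice forms of Pkm apart. Aldoa, the aldolase of muscle, lay at 0.23 and -0.41 in IM2 and at -0.12 to 0.60 in the transfected cultures. Its difference of 0.23 had a 95% interval of -0.22 to 0.67 (limma adjusted p = 0.483).

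**Figure D3:**
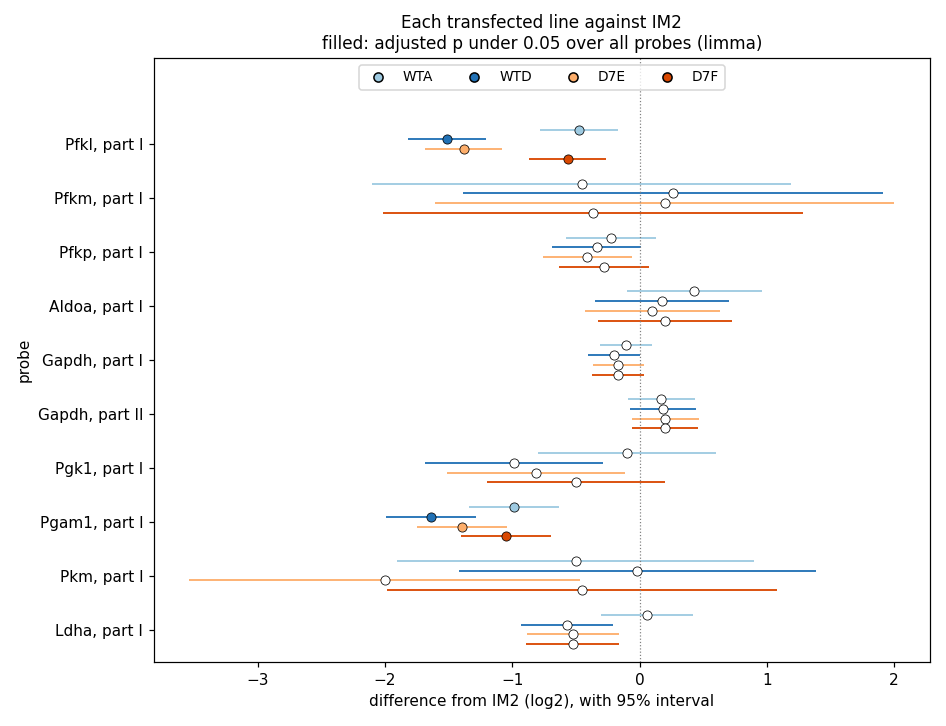
Difference of each transfected line from IM2 on the log2 scale (x axis) for each member probe (y axis), with 95% intervals, and filled points where the adjusted p over all probes was under 0.05. Filled points appear for Pfkl and Pgam1 alone, and the intervals of Pfkm and Pkm span more than those of the other probes.

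In every single line, 2 of 10 member probes passed against IM2, and these were Pfkl and Pgam1. Over all probes the shares were 12.3% in D7E, 11.5% in WTA, 7.03% in WTD and 4.51% in D7F. These comparisons share the IM2 cultures, so the line results are not independent of each other. The mean of the mutant lines did not differ detectably from that of the wild-type lines for any member. In that contrast 0 of 10 passed the test (limma), where 0.196% of all probes passed. At an unadjusted p under 0.05 stood 1 of 10, against 650 of all 9711 probes. The mean of the high lines against the low lines gave 0 of 10 as well, where 0.381% of all probes passed. There 2 of 10 had an unadjusted p under 0.05, against 768 of all 9711 probes. For Pgam1 the mutant minus wild-type difference was 0.09 (95% interval -0.16 to 0.34), and the high minus low difference was 0.15 (-0.10 to 0.40).

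The interaction of genotype and level was taken as WTD and D7E averaged, less the average of WTA and D7F. It passed for Pfkl and Pgam1, 2 of 10 member probes against 2.37% of all probes. For Pfkl it was -0.93 (SE 0.10, limma adjusted p = 0.000447), and the 6 cultures of WTD and D7E at -1.54 to -1.26 lay below the 6 of WTA and D7F at -0.64 to -0.11. High wild-type Pabpn1 thus went with a higher Pfkl ratio than low wild-type Pabpn1, and high mutant Pabpn1 with a lower one than low mutant Pabpn1. For Pgam1 it was -0.50 (SE 0.11, limma adjusted p = 0.0451), and the ranges of -1.66 to -1.19 and -1.19 to -0.56 met at their ends. This narrow call was lost in 20 of 28 other settings, with adjusted p between 0.0182 and 0.245 over all of them, and leaving out IM2 culture 2 or 3 or any WTD, D7E or D7F culture was enough to lose it (adjusted p = 0.0551 to 0.121). The values for Pgk1 and Ldha were -0.60 and -0.31 and did not pass (limma adjusted p = 0.219 and 0.223).

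Across the 15 cultures, Pfkl, Pgk1, Pgam1 and Ldha, a group formed after the values were seen, varied together. The 6 pairs among them had Pearson r between 0.68 and 0.92, the highest for Pfkl with Pgam1. Within the 12 transfected cultures these pairs had r between 0.61 and 0.92. The other 30 pairs of members had r between -0.53 and 0.48. These are descriptions: the cultures fall into lines, and all part I probes of a culture share the same 2 arrays.

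The probes most like the members were found from the mean profile of the 6 members measured in all 15 cultures, over 5022 probes of other genes with a value in every culture. The members were not scaled, so those that varied most, Pfkl, Pgk1 and Pgam1, weighed more in the profile than Gapdh and Pfkp. The highest r belonged to Nrn1 (0.97), Bnip3 (0.97), Grb10 (0.96), Adm (0.94) and Mif (0.93), and the lowest to Fst (-0.92), Baz1a (-0.91) and Parm1 (-0.91). Bnip3 and Adm are textbook genes of the hypoxia response. With each probe centred on its own mean, the profile was 0.43 to 0.50 in the IM2 cultures, 0.45 in WTA culture 3 and 0.07 or lower in the other 11 transfected cultures.

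Phosphoglycerate mutase was the step at which isozymes passed in opposite directions, Pgam1 lower and Pgam2 higher. Enolase and lactate dehydrogenase isozymes also differed in opposite directions over the 4 lines, but Eno3 and Ldha missed the threshold. In the transfected cultures, the mean of Pgam2 minus Pgam1 was 1.80. That of Eno3 minus Eno2 was 2.04 and 2.59 by probe, and that of Ldhb minus Ldha 0.94, none of them tested. Of 13 tested probes for other glycolytic enzymes and isozymes, 5 passed in the 4 lines against IM2, 1 lower and 4 higher, against 8.84% and 6.41% of all probes. Pgam2, the muscle phosphoglycerate mutase, lay at -0.20 to 0.06 in IM2 and at 0.23 to 1.07 in the transfected cultures. It rose by 0.61 (SE 0.16, limma adjusted p = 0.021), and all 12 transfected cultures lay above IM2. The call was lost in 6 of 28 other settings, among them without IM2 culture 1 (0.55, adjusted p = 0.10) or IM2 culture 3 (0.61, adjusted p = 0.0684). Pgam2 minus Pgam1 within a culture was -0.35 to 0.11 in IM2 and 0.82 to 2.28 in the transfected cultures, a difference chosen after its values were seen and not tested.

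Eno2, the neuronal enolase, lay at 0.32, -0.15 and 0.09 in IM2 and at -2.15 to -1.05 in the transfected cultures. It fell by 1.58 (SE 0.15, limma adjusted p = 8.64e-05), which is 2.98-fold and a larger difference than that of any member called. Eno3, the muscle enolase, had 2 probes with differences of 0.50 and 1.43 that did not pass (limma adjusted p = 0.0662 and 0.0510), although each passed without WTA culture 2 (0.54 and 1.52, adjusted p = 0.0418 and 0.0396). The first also passed without D7E culture 1, and the second without IM2 culture 1 or WTD culture 3. With Eno1 without a row, the main enolase of most other cells was not measured here.

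Ldhb, the lactate dehydrogenase chain common in heart, rose by 0.82 (SE 0.17, limma adjusted p = 0.00949). It lay at -0.29 to -0.09 in IM2, at 0.86 to 1.49 in WTD, at 0.29 to 1.17 in WTA, at 0.27 to 0.49 in D7F and at 0.01 to 0.35 in D7E. Every transfected culture lay above IM2, and by line WTA and WTD passed while D7E and D7F did not (adjusted p = 0.371 and 0.167). In the mutant lines against the wild-type lines, 0 of 13 probes for other glycolytic enzymes and isozymes passed (limma), where 0.196% of all probes did. Ldhb passed there without WTA culture 2 (-0.86, adjusted p = 0.0120). The call over the 4 lines was lost in 3 of 28 other settings, 1 of which, the turned IM2 sign, lowered the difference to 0.43 (adjusted p = 0.109). Pklr, the liver and red cell pyruvate kinase, rose by 0.76 (limma adjusted p = 0.0365). That call was lost in 16 of 27 other settings, among them leaving out any of 10 of the cultures. Its difference was -0.38 when the IM2 values had their sign turned, and its IM2 cultures ran from -1.08 to 0.14. Hk1, a hexokinase, rose by 0.46 on 1 probe (adjusted p = 0.0118), with 0.25 on another that did not pass. The call was lost without IM2 culture 3 (0.36, adjusted p = 0.0717). The isozyme genes Aldoc (0.31) and Gapdhs (0.16) did not pass either. Whether the probes tell near-identical isozymes and pseudogenes apart was not tested.

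**Figure D4:**
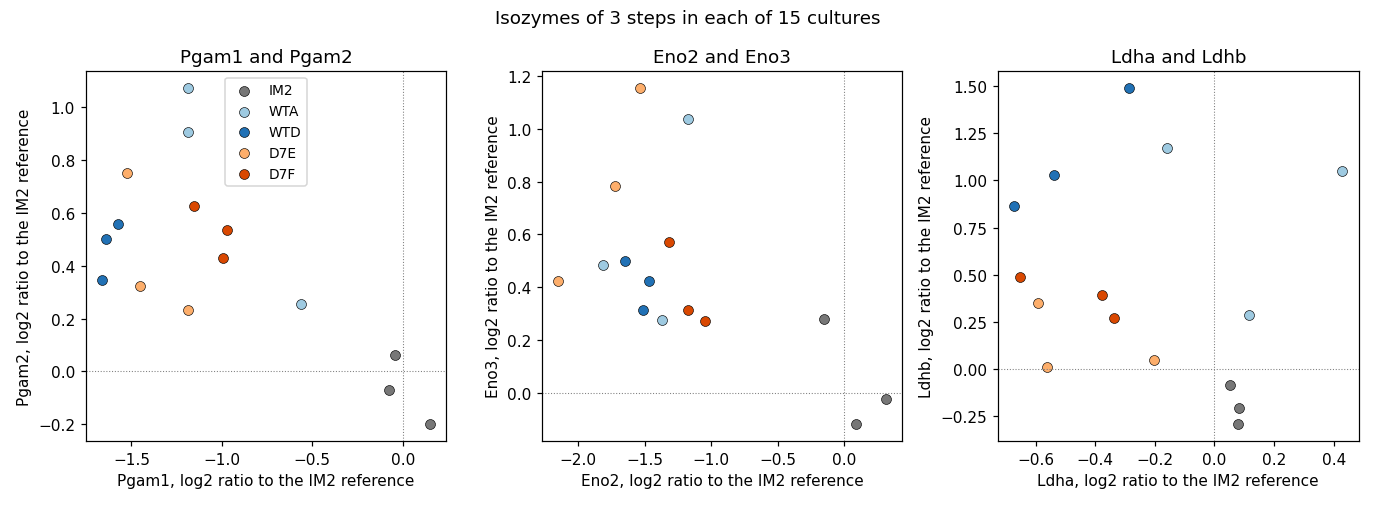
Log2 ratio to the IM2 reference of 2 isozymes of a step in the same culture, 1 point per culture coloured by line: Pgam2 against Pgam1, Eno3 against Eno2 and Ldhb against Ldha. The transfected cultures lie above IM2 on the y axis of the Pgam and Ldh plots and left of it on the x axis of the Pgam and Eno plots, while 2 WTA cultures lie right of IM2 for Ldha.

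Genes around the pathway did not move as a block. Among 14 probes for glucose and lactate transport and for the control of phosphofructokinase and pyruvate dehydrogenase, 2 passed as lower and 3 as higher in the 4 lines against IM2. Of all probes, 8.84% passed as lower and 6.41% as higher. Dld, a subunit shared by pyruvate dehydrogenase and related complexes, rose by 0.68 (limma adjusted p = 0.00474). With the IM2 sign turned its difference was 0.35, a value that did not pass (adjusted p = 0.0733). Slc2a4, the insulin-responsive glucose transporter of muscle and fat, rose by 0.67 (adjusted p = 0.0041), a call lost on Cy5 arrays alone and without low-quality arrays. With the IM2 sign turned its difference was 0.41 and passed (adjusted p = 0.0378). Mpc1, a subunit of the mitochondrial pyruvate carrier, rose by 0.53 (adjusted p = 0.0151), a call lost in 4 of 28 other settings, among them leaving out IM2 culture 1 or 3 (adjusted p = 0.0717 and 0.0656). Pdk3, a kinase that inhibits pyruvate dehydrogenase, fell by 0.43 (adjusted p = 0.0427), a call lost in 19 of 28 other settings, among them leaving out any of 10 of the cultures (adjusted p = 0.0528 to 0.133). Slc16a1, a lactate transporter, fell by 0.54 (adjusted p = 0.0487), a narrow call that was lost in 18 of 28 other settings, among them leaving out any of 11 of the cultures.

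Among 25 probes for the hypoxia-inducible factor pathway and its targets outside glycolysis, 14 passed as lower and 3 as higher, with a median difference of -0.60. The shares of all probes were 8.84% lower and 6.41% higher. The hypoxia list was chosen with earlier results of these data known, so its count is no independent evidence of a direction. The largest falls were in Ndrg1 (-2.88 on part I), Adm (-2.62), which encodes the vasodilator peptide adrenomedullin, and Ero1a (-2.47), an oxidase of the endoplasmic reticulum, with limma adjusted p of 7.06e-06, 2.15e-05 and 1.32e-05. Hif1a itself differed by -0.05 and did not pass. In the interaction of genotype and level, 2 of these 25 probes passed, against 2.37% of all probes. They were Adm (-1.20) and Bnip3 (-1.03), in the same direction as Pfkl and Pgam1. Among 9 probes for Myc and other regulators of glycolytic genes, none passed in the 4 lines against IM2 (limma), where 15.2% of all probes did. An unadjusted p under 0.05 was reached by 5 of the 9, against 2976 of all 9711 probes. In D7E alone, 3 of the 9 passed, 1 lower and 2 higher, against 12.3% of all probes. In the test among the 5 lines 1 of the 9 passed, against 10.3% of all probes.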

How the data were processed

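RNA of 15 cultures was compared on 60 two-colour arrays in 2 parts, each against an IM2 reference. The molecule labels read total RNA on part I and polyA RNA on part II. The authors deposited log ratios without naming the base, and log10 was assumed because they stop at -2 and 2, a ratio of 100 in base 10 and of 4 in base 2. How the authors corrected background and normalised is not given in the sources used. Values at a limit were dropped, multiplied by 3.3219 to log2 and averaged over both dye orientations of a culture, both being required. For WTA culture 3 on part I the dye follows the channel sources, which differ from the titles, and 1 description of D7F culture 1 calls its level high and the title was used. Ratios were read as culture over reference. Identical rows were collapsed and control probes left out. Testing required values in 2 cultures per line, which left 4650 probes of part I and 5061 of part II. The orientations of an IM2 culture correlated at r from -0.35 to -0.17 on part I. An alternative turned the sign of the IM2 values. It turns both orientations alike, so it leaves that negative correlation unchanged and does not address it.

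Each part was fitted with limma 3.58.1 in R 4.3.3 (lmFit, eBayes, 5 lines in 1 model), with Benjamini-Hochberg adjustment over both parts and a threshold of 0.05. On simulated data for the 4 lines against IM2, 135 of 200 probes changed by 1 on the log2 scale were recovered (67.5%), with 7 false calls among 9711 probes. The simulated noise was normal and independent, and all 4 lines were shifted alike. It held no shared array, dye or line effects, so these counts do not give the error rate in the real data. The labels call the replicates cultures, so p-values reflect culture-to-culture spread, and the number of arrays limits the precision. The members and all gene lists were chosen with earlier results of these data known. Every member was described; from each other list, the 3 called genes with the largest difference and the isozymes of members were named, and the 5 and 3 probes of highest and lowest likeness. Other genes named were chosen after their values were seen. Alternatives covered limits, IM2 direction, centring, scaling, single orientations, array quality, filters, identical rows, the samples fitted, a block for culture number, adjustment within a part, and leaving out each culture. Same-numbered cultures did not deviate together consistently, so no pairing was used. Their r ran from -0.18 to 0.29 on part I, with 8 of 30 pairs over 0.1. On part II it ran from -0.17 to 0.40, with 7 of 30 over 0.1. Between arrays of 1 orientation the lowest r over probes was -0.24.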

Additional observations from a re-analysis of the deposited data

Results flagged for a closer look

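The interaction of genotype and level stood out for 2 members, because the high and low lines differed in opposite directions under wild-type and mutant Pabpn1. Pfkl had a value of -0.93 on the log2 scale (WTD and D7E minus WTA and D7F, limma adjusted p = 0.000447), with the 6 cultures of each side apart from each other. The Pfkl value ran from -1.06 to -0.85 and passed in 28 of 28 other settings. Pgam1 had a value of -0.50 (limma adjusted p = 0.0451), which passed in 8 of 28 other settings. Each side of this contrast consists of 2 single lines, so genotype, level and line cannot be told apart.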

How the results depend on the processing

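Against IM2, the falls of Pfkl and Pgam1 in the mean of the 4 lines, in WTD and in D7E kept their direction and passed in every alternative run (28 settings for the mean, 29 for each line). The number of member probes passing was 2 as reported. It was 4 without WTA culture 3 for the 4 lines, and the range over leaving out each culture was 2 to 4. For WTD it was 4 with arrays centred and scaled, where the calls over all probes also rose, from 683 to 1143. It was also 4 for WTD with probes measured in all 15 cultures (leaving out each culture, 2 to 4). For WTA against IM2 it fell to 1 with limit values kept, the IM2 sign turned, arrays centred, Cy3 or Cy5 arrays alone, 1 orientation enough, no low-quality arrays, a looser filter or the replicate block. It fell to 0 with arrays centred and scaled and 0 with only the lines compared (leaving out each culture, 1 to 2). For D7F it fell to 1 under the same settings, scaling and only the lines compared included (1 each), except Cy5 arrays alone, where it was 0 (leaving out each culture, 1 to 2). The interaction count of 2 fell to 1 with limit values kept, arrays centred, either orientation alone, 1 orientation enough, no low-quality arrays, a looser filter, only the lines compared or the replicate block (leaving out each culture, 1 to 2). Mutant against wild-type and high against low gave 0 in all 28 settings each.

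Culture numbers did not pair the samples consistently, although culture 3 of WTA and D7F deviated together on part II (r = 0.40). With culture number as a replicate block, 3 member probes passed for the 4 lines, 3 for WTD and 3 for D7E (adding Ldha), 1 for WTA, 1 for D7F and 1 for the interaction, and all-probe calls for the 4 lines were 1402 instead of 1480. The number of all probes passing moved more than the members did: 397 without low-quality arrays to 1794 with the IM2 sign turned for the 4 lines, WTA ran from 14 to 1343, WTD from 138 to 1143, D7E from 344 to 1444 and D7F from 83 to 761, 176 to 1260 among the lines, 37 to 437 for the interaction, 7 to 71 for high against low and 5 to 34 for mutant against wild-type. With the IM2 sign turned, Pklr reversed to -0.38 in the 4 lines and -0.21 in WTA, and Fbp1 to -0.033 in D7F. The cause was not tested. Low values near background could not be judged, since no spot intensities were used.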

Other observations

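Branches that lead into and out of glycolysis held 20 tested probes, of which 1 passed as lower and 2 as higher in the 4 lines against IM2. These 3 of 20 are close to the share of all probes, 15.2% in either direction (8.84% lower and 6.41% higher). Fbp1, the gluconeogenic fructose bisphosphatase, rose by 0.99 (limma adjusted p = 0.00205). That call was lost on Cy5 arrays alone and with the IM2 sign turned, where the difference was 0.16 (adjusted p = 0.503). Pygm, the muscle glycogen phosphorylase, rose by 0.44 (adjusted p = 0.0428), a call lost in 19 of 28 other settings, among them leaving out any of 11 of the cultures. Pgm1 fell by 0.51 (adjusted p = 0.0454), a call lost in 23 of 28 other settings, 13 of them leaving out 1 culture. Pgm1 is a phosphoglucomutase, which links glycogen to glycolysis. Its mean log2 ratio was 0.16 ± 0.08 in IM2, 0.23 ± 0.39 in WTA and 0.02 ± 0.28 in D7F, but -0.97 ± 0.13 in WTD and -0.68 ± 0.21 in D7E (SD, n = 3 each). Its interaction of genotype and level was -0.95 (limma adjusted p = 0.00323), and the cultures of WTD and D7E at -1.10 to -0.52 lay below those of WTA and D7F at -0.28 to 0.69. Slc2a4 also passed in that contrast, at -0.67 (limma adjusted p = 0.00809), from the side above IM2: its cultures ran from 0.10 to 0.33 in WTD and D7E and from 0.61 to 1.31 in WTA and D7F.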
